A study of Mus musculus with 2 samples.

Results

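The genes described here encode potassium channels of the mouse vagus nerve ganglia, measured in single nuclei. They are all genes in the deposited matrix whose symbol begins with Kcn, leaving out the non-coding Kcnq1ot1 and the auxiliary Kcnip and Kcnmb genes. Of 99 symbols, 1 Kcnq1ot1, 4 Kcnip and 6 Kcnmb symbols were left out, and 75 of the remaining 88 genes had at least 20 unique molecular identifiers (UMIs, each standing for 1 captured RNA molecule) over all nuclei. The 75 genes are 75 of 26032 genes with a UMI, and they held 293962 UMIs, 0.654% of all UMIs. The minimum separated Kcna5, with 22 UMIs, from Kcnj14 and Kcnv2, with 16 each. Kcnj1, Kcnj5 and Kcnk16 had 0 UMIs. The Kcna3, Kcna7, Kcna10, Kcne1, Kcne1l, Kcne2, Kcne3 and Kcnk15 genes also stayed under the minimum. The 75 genes include 2 antisense genes, Kcnd3os and Kcnab3os, because the symbol rule takes them.

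Potassium channels let potassium leave the cell and so set the resting potential, end the action potential and limit repetitive firing. Voltage-gated channels are built from Kcna (Kv1), Kcnb (Kv2), Kcnc (Kv3), Kcnd (Kv4), Kcnq (Kv7) and Kcnh (Kv10 to Kv12) subunits, and Kcnf, Kcng, Kcns and Kcnv subunits assemble with Kv2 subunits and alter them. Kcnma1 (BK), Kcnn (SK and IK) and Kcnt (sodium-activated) channels respond to internal ions. Inward rectifiers (Kcnj) and two-pore leak channels (Kcnk) work near rest, and in glia they carry the uptake and spread of potassium that neurons release. Vagal sensory neurons sit in the nodose ganglion, derived from placode, and the jugular ganglion, derived from neural crest, and both are wrapped by satellite glia, with Schwann cells along the axons.

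C57BL/6J mice of genotype Rosa26-floxed-STOP-Cas9-eGFP on a standard chow diet received AAVrg-Cre, a retrograde viral vector carrying Cre, in the liver, and their vagal ganglia were taken 4 weeks later. The female library came from a pool of 14 ganglia of 7 mice and the male library from a pool of 16 ganglia of 8 mice. Both pools carried the same allele and injection, so no uninjected group was included here. Each sex was thus 1 library of pooled animals, and sex and library cannot be told apart. The EGFP feature had 1 female UMI and 0 male UMIs, so no nucleus could be marked by its reporter. Of Xist, 13424 UMIs were female and 7 male, and of Uty 1 and 4677.

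The matrix held 3791 female and 4923 male nuclei, with 17435300 and 27529730 UMIs and medians of 2381 and 2658 UMIs per nucleus. The 2 libraries shared 8 barcode sequences. Nuclei were grouped into 20 clusters without using the Kcn genes, and clusters were named from marker lists. The neuron-like class had 673 female and 1609 male nuclei, satellite glia-like 558 and 820, Schwann cell-like 547 and 700, fibroblast-like 734 and 985, barrier fibroblast-like 211 and 314, endothelial cell-like 217 and 191, macrophage-like 136 in each, adipocyte-like 120 and 44, and granule cell-like 379 and 22. The granule cell-like class carried cerebellar granule cell markers such as Gabra6 and came mostly from the female library, and with 1 library of each sex a class of this kind may be that library rather than a cell type of the ganglion. A further cluster of 216 female and 102 male nuclei, led by Adarb2, Pou1f1 and Pomc, was left unnamed. The class names were rebuilt here and differ from the study's own. The paper assigns most of its cells to clusters of vagal sensory neurons. The neuron-like class here held 2282 of 8714 nuclei (26.2%).

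A level is the number of UMIs of a gene per 10000 UMIs of the class, with an exact Poisson 95% interval in parentheses, which covers counting error only. There are no replicates of either sex, so no test was run. A difference is given as a log2 ratio with its exact interval, and it was called where it was at least 2-fold in the same direction in both libraries. Values given as a pair are those of the female and then the male library. Free RNA from other cells is counted in every class, so that the level of a class can hold RNA of another.

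The summed level of the 75 genes was higher in neuron-like nuclei than in any other named class but the granule cell-like one. It was 89.1 for females and 82.0 for males, against 35.9 and 32.5 in the satellite glia-like class, 27.2 and 27.5 in the Schwann cell-like class, and 20.2 to 28.7 in the 5 remaining classes with a name. Granule cell-like nuclei stood highest, at 127.7 and 107.4, of which Kcnd2 alone made 81.5 and 64.4. In neuron-like nuclei the largest single part was Kcnb2, at 31.7 and 25.2. The unnamed cluster was at 81.7 and 48.5, of which the Kcnd genes made 35.6 and 8.38. The 10 genes with the most UMIs were Kcnb2, with 79245 UMIs, Kcnd2 (22637), Kcnab1 (22460), Kcnh7 (18506), Kcnq3 (18092), Kcnma1 (12527), Kcnc2 (11839), Kcnq5 (11623), Kcnh8 (8041) and Kcnj3 (8019). Kcnb2 alone held more UMIs than the next 3 genes together.

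UMI counts in nuclei include intronic reads, and across the 75 genes they went with the length of the gene, with a Spearman rho of 0.71 given as a description across genes, which are not replicates. The genes span 2.298 to 725.061 kb, with a median of 37.102 kb. Per kilobase of gene span, the order was led by Kcna1, with 1111 UMIs per kb over 5.988 kb, and Kcna2, with 349.9 UMIs per kb, ahead of Kcnrg with 192 and Kcnb2 with 182. Within neuron-like nuclei the level per 100 kb of span was 12.8 for Kcna1, 6.61 for Kcna2, 6.23 for Kcnb2 and 3.48 for Kcna4. Comparisons between genes below are therefore of ratios, and levels are compared only within a gene. Of the 75 genes, 5 overlap another gene on the same strand and 31 on the other strand.

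A member was taken as high in a class where its level there was at least 2 times the mean of the other classes in each library, with at least 20 UMIs in the class. Of 72 members with enough UMIs in some class, 51 were high in at least 1 class, where 35.8% of all genes measured were. The class with the highest level was the same in both libraries for 47 of 75 members. With the libraries joined, it was the neuron-like class for 19 of the 75 members and the granule cell-like class for 16. Of these, 15 and 12 had the same class in both libraries. The share of all genes was not computed for these counts.

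**Figure D1:**
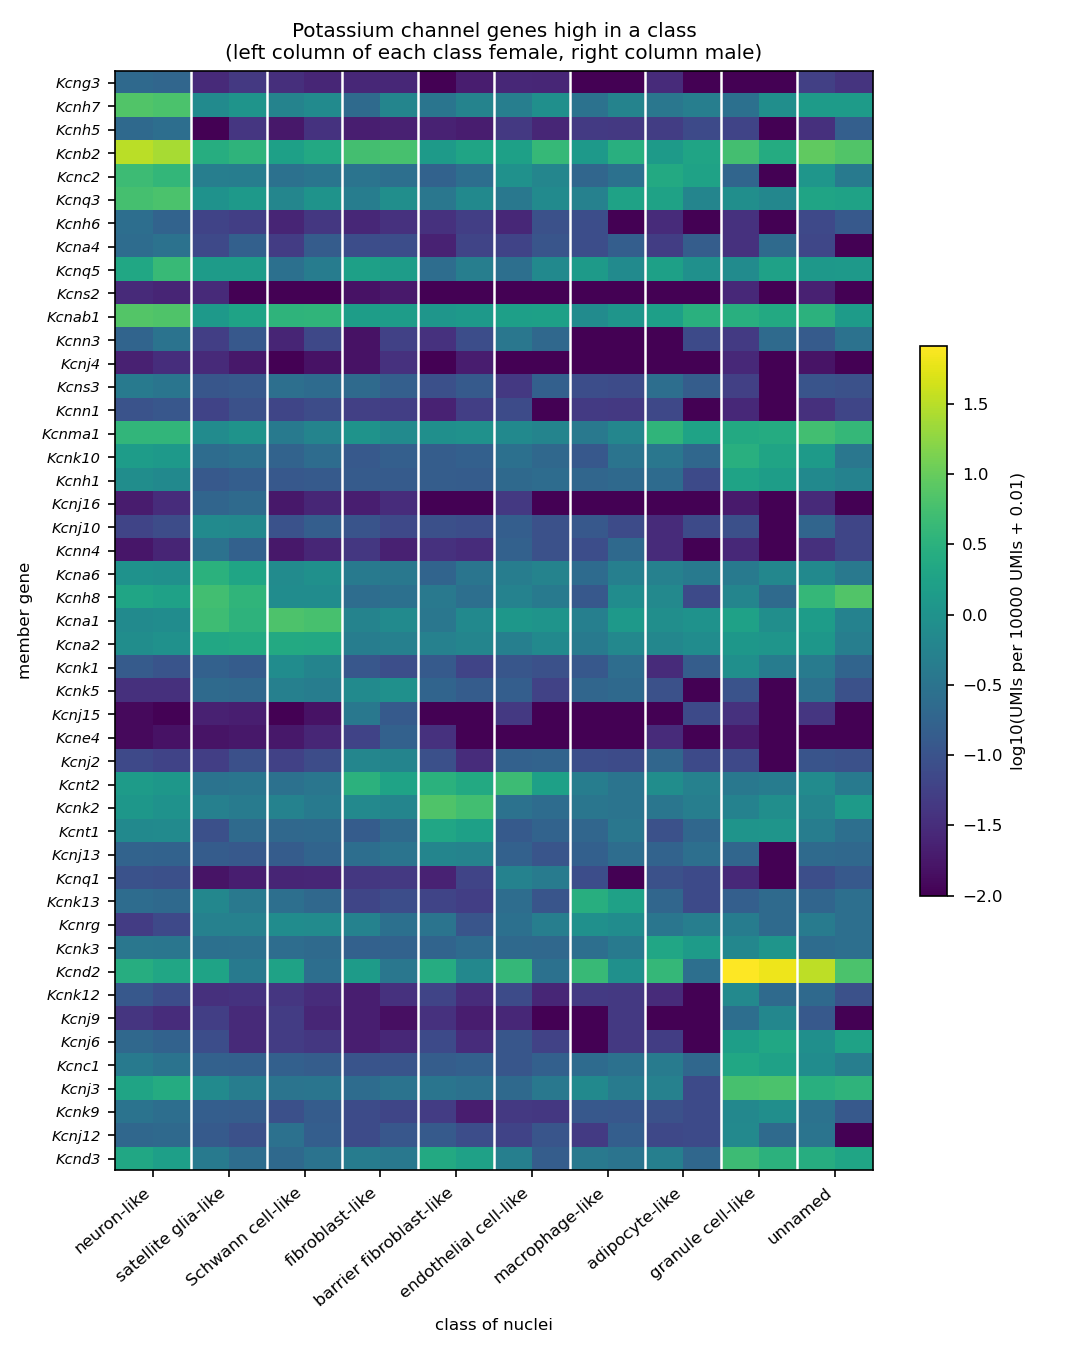
Heat map of 47 of the members high in at least 1 class (y axis), with a female and a male column for each class (x axis) and colour showing log10 of UMIs per 10000 UMIs plus 0.01. The upper block holds the members high in neuron-like nuclei, with Kcnb2 the brightest at 31.7 and 25.2, and Kcnd2 is brightest in granule cell-like nuclei.

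Members higher in neuron-like than in glia-like nuclei included voltage-gated, ion-activated, rectifier and leak channel genes. Glia-like nuclei are the satellite glia-like and Schwann cell-like classes together. Of 70 members measured, 26 were at least 2-fold higher in neuron-like nuclei in both libraries (37.1%, against 13.3% of all genes), 8 were at least 2-fold lower (11.4%, against 12.9%), and 36 passed neither limit. The median log2 ratio of the members was 1.06, and that of all genes was -0.14. The share of members that were lower was near that of all genes. With ratios centred on the median of all genes 28 were higher (15.1% of all genes) and 8 lower (11.2%).

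Kcnb2 (chr1:15287254-15723750, plus strand, mm10) encodes Kv2.2, a delayed rectifier. Its level in neuron-like nuclei was 31.7 (31.3 to 32.1) among female and 25.2 (25.0 to 25.5) among male nuclei. In satellite glia-like nuclei it was 2.76 and 3.43 and in Schwann cell-like nuclei 1.66 and 2.32 in the female and male libraries. The log2 ratio of neuron-like over glia-like nuclei was 3.80 (3.69 to 3.92) for females and 3.09 (3.01 to 3.17) for males. Neuron-like levels of both libraries lay above those of every other class.

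Of the fast-deactivating Kv3 family (Kcnc) 2 of 4 members were higher, and of the transient Kv4 family (Kcnd, with Kcnd3os) 1 of 4 was. Kcnc2 (Kv3.2) had a level of 4.76 (4.61 to 4.91) among female and 3.89 (3.80 to 3.98) among male nuclei, with log2 ratios of 3.63 and 3.29, and Kcnc1 (Kv3.1) had a level of 0.394 and 0.297 with ratios of 1.35 and 1.05. The Kcnc1 call was lost with clusters scaled within each library, against satellite glia-like nuclei alone, and without neuron groups 1 and 3, described below. Among the Kv4 genes, Kcnd3 had a level of 2.12 (2.02 to 2.22) among female and 1.59 (1.53 to 1.65) among male nuclei and log2 ratios of 2.76 and 2.58. Kcnd2 had a level of 2.75 (2.64 to 2.87) among female and 2.04 (1.97 to 2.10) among male nuclei, but its log2 ratios of 0.60 and 2.63 passed the limit in the male library alone. Kcnd1 had a level of 0.288 and 0.318 and ratios of 0.63 and 0.72, under the limit in both.

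The ether-à-go-go family (Kcnh) held some of the largest ratios. Kcnh5 (Kv10.2) had a level of 0.209 (0.179 to 0.243) among female and 0.251 (0.229 to 0.275) among male nuclei. Its log2 ratios were 5.32 (3.41 to 11.22) for females and 3.04 (2.31 to 4.02) for males. With the libraries joined its ratio was the highest of all members. The female ratio rests on 0 satellite glia-like UMIs and 1 Schwann cell-like UMI. Among the neuron groups described below, its level was highest in group 7. Its call stayed without that group, but its rank without it is not given here. Kcnh7 (Kv11.3) had a level of 7.11 (6.93 to 7.30) among female and 6.29 (6.17 to 6.40) among male nuclei and ratios of 3.46 (3.25 to 3.68) for females and 2.78 (2.64 to 2.93) for males. Kcnh1 (Kv10.1) had ratios of 2.86 and 2.44 and Kcnh6 (Kv11.2) of 2.79 and 2.09. The other 4 Kcnh members passed neither limit, among them Kcnh8 (Kv12.1), whose ratios were -0.74 and -0.50.

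The M-current family (Kcnq) forms channels that open near rest and limit firing. Kcnq3 had a level of 5.62 (5.46 to 5.79) among female and 6.42 (6.30 to 6.53) among male nuclei, with log2 ratios of 2.78 (2.59 to 2.98) for females and 2.49 (2.36 to 2.62) for males. Kcnq5 had a level of 2.15 (2.05 to 2.25) among female and 4.34 (4.25 to 4.44) among male nuclei and ratios of 1.29 and 2.13, and Kcnq1 had ratios of 2.85 (1.46 to 5.38) for females and 2.43 (1.38 to 4.01) for males at a level of 0.0876 and 0.0789. The 2 libraries did not overlap in Kcnq5, which is taken up with the neuron groups below. The neuron to glia call of Kcnq5 was lost with a mean over nuclei in place of summed UMIs. It was also lost against satellite glia-like nuclei alone, and without neuron group 7, described below.

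Ion-activated channels were also called. Kcnma1 had a level of 3.78 (3.65 to 3.92) among female and 3.74 (3.66 to 3.83) among male nuclei and log2 ratios of 2.64 and 2.18. Both sodium-activated channels were higher, Kcnt1 with ratios of 2.38 and 1.80 and Kcnt2 with 2.28 and 1.82, at levels of 0.696 and 0.746 and of 1.40 and 1.16. Of the small-conductance family, Kcnn3 was higher with ratios of 2.38 and 1.72, while Kcnn1, at a level of 0.0914 and 0.106, had ratios of 0.77 and 0.40. The Kcnn3 call was lost without neuron group 7, described below.

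Among rectifiers and leak channels, Kcnj3 and Kcnj6, subunits of the G protein-gated GIRK channel, were higher. Kcnj3 had a level of 1.93 and 2.51 with log2 ratios of 1.80 and 2.65, and Kcnj6 had ratios of 1.74 and 2.65. The two-pore genes Kcnk10 (TREK-2), Kcnk12 (THIK-2) and Kcnk2 (TREK-1) had ratios of 2.81 and 2.34, of 1.90 and 1.49 and of 1.16 and 1.29. Kcnk10 had a level of 1.43 (1.35 to 1.52) among female and 1.28 (1.23 to 1.33) among male nuclei. Kcnk18 (TRESK), a leak channel known from sensory neurons, had a level of 0.126 and 0.114, and its ratios of 1.79 and 0.82 passed the limit in the female library alone. Of the silent subunits, Kcng3 had ratios of 3.18 and 2.72 at a level of 0.205 and 0.186. Kcng4, also called, rests on 13 female and 41 male UMIs in neuron-like nuclei, against 0 female UMIs in glia-like nuclei and 1 and 3 male UMIs in the satellite glia-like and Schwann cell-like ones, so its female ratio is set by the 0.5 UMI added and the intervals reach down to 0.13 for females and -0.16 for males. The 3 Kcns members passed neither limit. Kcnab1, a beta subunit of Kv1 channels, had a level of 7.37 (7.18 to 7.56) among female and 6.91 (6.79 to 7.03) among male nuclei and ratios of 1.70 and 1.41, and Kcna4, a Kv1 subunit of transient current, had 2.10 and 1.07. The Kcna4 and Kcng4 calls were lost with a mean over nuclei in place of summed UMIs. That of Kcna4 was also lost against satellite glia-like nuclei alone, and that of Kcnk2 in nuclei over 2000 UMIs.

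**Figure D2:**
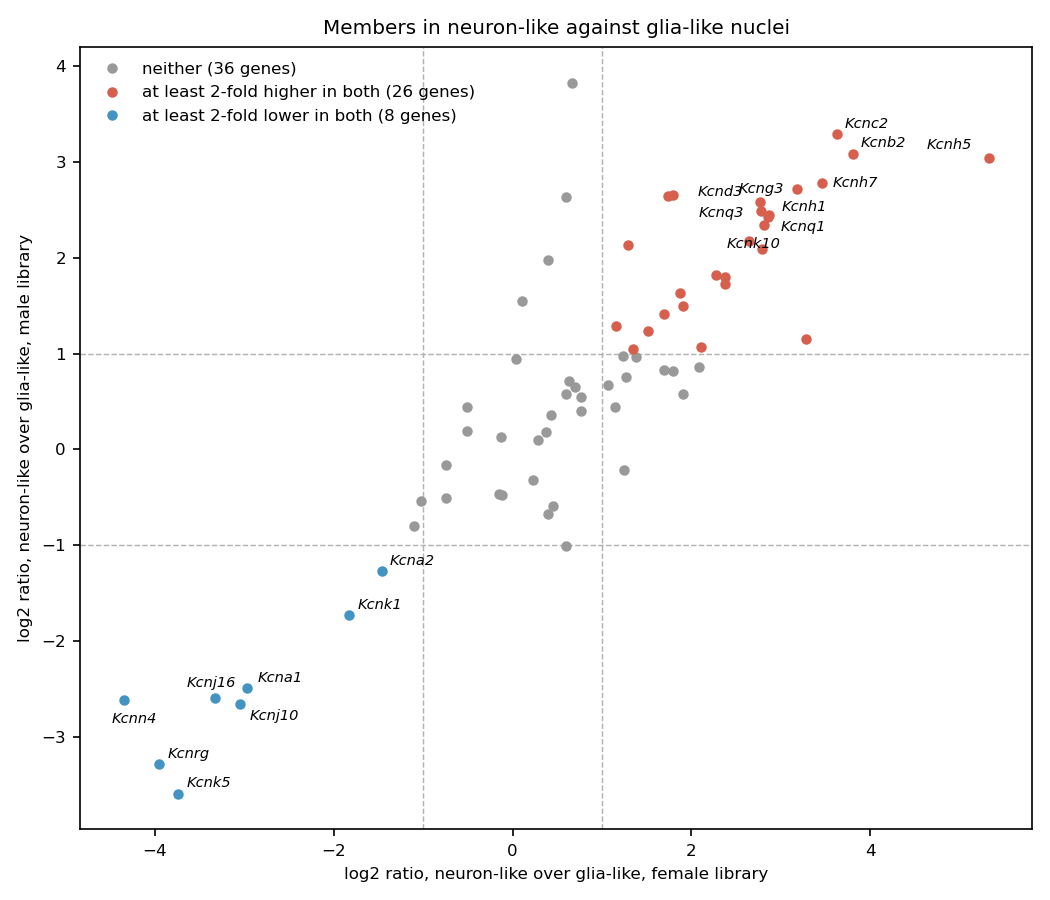
Log2 ratio of the level in neuron-like over glia-like nuclei in the female library (x axis) against the male library (y axis), with a point for each of the 70 members measured and lines at a 2-fold difference. The 26 members called higher lie in the upper right and the 8 called lower in the lower left.

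In neuron-like nuclei 20 of 70 members met the rule for a high level against all other classes, where 11.2% of all genes measured did. The largest folds were those of Kcng3 (11.9), Kcnh7 (10.5), Kcnh5 (8.02), Kcnb2 (7.34) and Kcnc2 (6.65). As a share of nuclei with at least 1 UMI, Kcnb2 was found in 88.9% of neuron-like nuclei, at a median depth of 7221 UMIs, and in 26.5% of macrophage-like nuclei, which should lack it, at a median of 1799.5 UMIs. With every nucleus thinned to 1000 UMIs, these shares were 67.7% and 14.0%. The exact 95% binomial (Clopper-Pearson) interval of the share lay above that in macrophage-like nuclei for 54 members as sequenced and for 19 after thinning, which left out 19 female nuclei of all classes. How many of all genes lay above was not computed, and the classes differed in depth. Levels per 10000 UMIs are therefore used for the comparisons.

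The 8 members lower in neuron-like than in glia-like nuclei included the rectifiers that glia use to take up potassium. Kcnj10 (Kir4.1) had log2 ratios of -3.05 (-3.60 to -2.55) for females and -2.65 (-2.98 to -2.32) for males, and Kcnj16 (Kir5.1), which assembles with it, had -3.32 (-4.72 to -2.23) for females and -2.59 (-3.21 to -1.99) for males. The Kv1 genes Kcna1 and Kcna2, known from the juxtaparanodes of myelinated axons, had ratios of -2.97 (-3.11 to -2.83) for females and -2.49 (-2.59 to -2.39) for males and of -1.46 and -1.27. The others were the leak channel genes Kcnk5 (-3.74 and -3.59) and Kcnk1 (-1.82 and -1.73), the calcium-activated Kcnn4 (-4.35 and -2.62), and Kcnrg (-3.95 and -3.28), a regulator of Kv assembly that forms no channel itself.

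Satellite glia-like nuclei held the highest level of Kcnj10 in both libraries, 0.721 (0.596 to 0.866) among female and 0.656 (0.561 to 0.762) among male nuclei. In Schwann cell-like nuclei the level was 0.0864 (0.0431 to 0.155) among female and 0.137 (0.0884 to 0.202) among male nuclei. The intervals of the classes did not overlap in either library. Kcnj16 had 0.182 (0.122 to 0.261) among female and 0.212 (0.160 to 0.276) among male nuclei in satellite glia-like and 0.00786 and 0.0164 in Schwann cell-like nuclei. Kcnj10 was found in 16.3% of satellite glia-like and 1.84% of macrophage-like nuclei, and in 6.98% of the former after thinning.

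The promoter of Kcnj10 is shown because Kcnj10 and its partner Kcnj16 are among the members called higher in satellite glia-like than in Schwann cell-like nuclei. The window of 250 bases before to 50 bases after the start lies on chromosome 1 at chr1:172340960-172341259 on the plus strand (RefSeq, GRCm38.p6, the build of mm10), and capitals mark a match to ACAAAG, a core letter string of SOX factors, searched with ACAATG on both strands.
Kcnj10 promoter: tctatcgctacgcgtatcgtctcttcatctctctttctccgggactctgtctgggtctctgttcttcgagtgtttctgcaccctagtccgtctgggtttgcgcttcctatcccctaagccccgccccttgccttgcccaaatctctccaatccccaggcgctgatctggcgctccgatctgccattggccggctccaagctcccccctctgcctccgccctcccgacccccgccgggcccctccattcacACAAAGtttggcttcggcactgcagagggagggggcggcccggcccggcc
The window is 63.7% G or C and holds 1 match. Either string occurs in 28.6% of 32851 promoters of this length. Counted by gene, with a match in any promoter of it, the share was 31.7% of all 27025 genes in the table, 23.1% of the members in it (12 of 52), and 2 of the 8 members in it that were high in satellite glia-like or Schwann cell-like nuclei (25.0%). The shares of the members were thus below that of all genes, and a match is a string of letters, not a site.

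Of 49 members measured, 7 were high in satellite glia-like nuclei, where 4.42% of all genes were. The folds over the mean of the other classes were 20.3 for Kcnj16, 7.69 for Kcnj10 and 4.68 for Kcnn4. They were 4.56 for Kcna6 and 3.98 for Kcnh8, with Kcna1 and Kcna2 also high. In the male library Kcnn4 was highest in macrophage-like nuclei, on 6 UMIs. Its log2 ratio of satellite glia-like over macrophage-like nuclei, with the libraries joined, was 0.45 (-0.51 to 1.79). Kcna6 (Kv1.6) had a level of 3.11 (2.84 to 3.40) among female and 2.0 (1.83 to 2.18) among male nuclei. Kcnh8 had 5.34 (4.99 to 5.71) among female and 3.67 (3.44 to 3.91) among male nuclei, against 1.98 and 1.74 in neuron-like nuclei. Kcnh8 was found in 52.3% of satellite glia-like nuclei and in 6.25% of macrophage-like nuclei, and in 30.8% of the former after thinning.

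In Schwann cell-like nuclei 4 of 41 members were high, where 5.98% of all genes were. They were Kcna1, at 4.67 times the mean of the other classes, Kcnk1 at 3.01, Kcna2 at 2.54 and Kcnk5 at 2.21. The level of Kcna1 (chr6:126640397-126646384, minus strand) was 6.51 (6.08 to 6.97) among female and 5.86 (5.51 to 6.22) among male nuclei, against 5.01 (4.66 to 5.37) among female and 3.41 (3.19 to 3.64) among male nuclei in satellite glia-like and 0.726 and 0.786 in neuron-like nuclei. Kcna2 (chr3:107101146-107115005, plus strand) had 2.38 (2.12 to 2.66) among female and 2.26 (2.05 to 2.49) among male nuclei, and in satellite glia-like nuclei 2.21 (1.98 to 2.45) among female and 2.33 (2.15 to 2.52) among male nuclei, so that its intervals overlapped between the glial classes in each library. Kcnk1 (TWIK-1) had 0.794 (0.646 to 0.964) among female and 0.563 (0.460 to 0.683) among male nuclei, against 0.157 and 0.127 in satellite glia-like nuclei.

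Set directly against Schwann cell-like nuclei, satellite glia-like nuclei had 9 of 54 members at least 2-fold higher in both libraries, where 5.60% of all genes were, and 2 lower, where 4.26% were. The median log2 ratio was 0.35 for the members and 0.02 for all genes. The higher ones included Kcnn2 (3.49 and 2.58 in the female and male libraries), Kcnj10 (3.0 and 2.24), Kcnh8 (2.77 and 2.24), Kcnq5 (2.34 and 1.67) and Kcna6 (2.01 and 1.12). Of those with 1 to 3 UMIs in Schwann cell-like nuclei of each library, Kcnn4 had 4.63 (2.65 to 10.53) for females and 3.03 (1.58 to 5.57) for males. Kcnj16 had 3.97 (1.94 to 9.88) for females and 3.48 (2.07 to 6.02) for males, and Kcnk4 had 1.60 (-0.43 to 5.09) for females and 2.36 (0.84 to 4.93) for males. The lower ones were Kcnk1 (-2.32 and -2.13) and Kcnk5 (-1.23 and -1.15). Leak channels of the Kcnk family were thus called on either side, Kcnk4 higher and Kcnk1 and Kcnk5 lower.

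**Figure D3:**
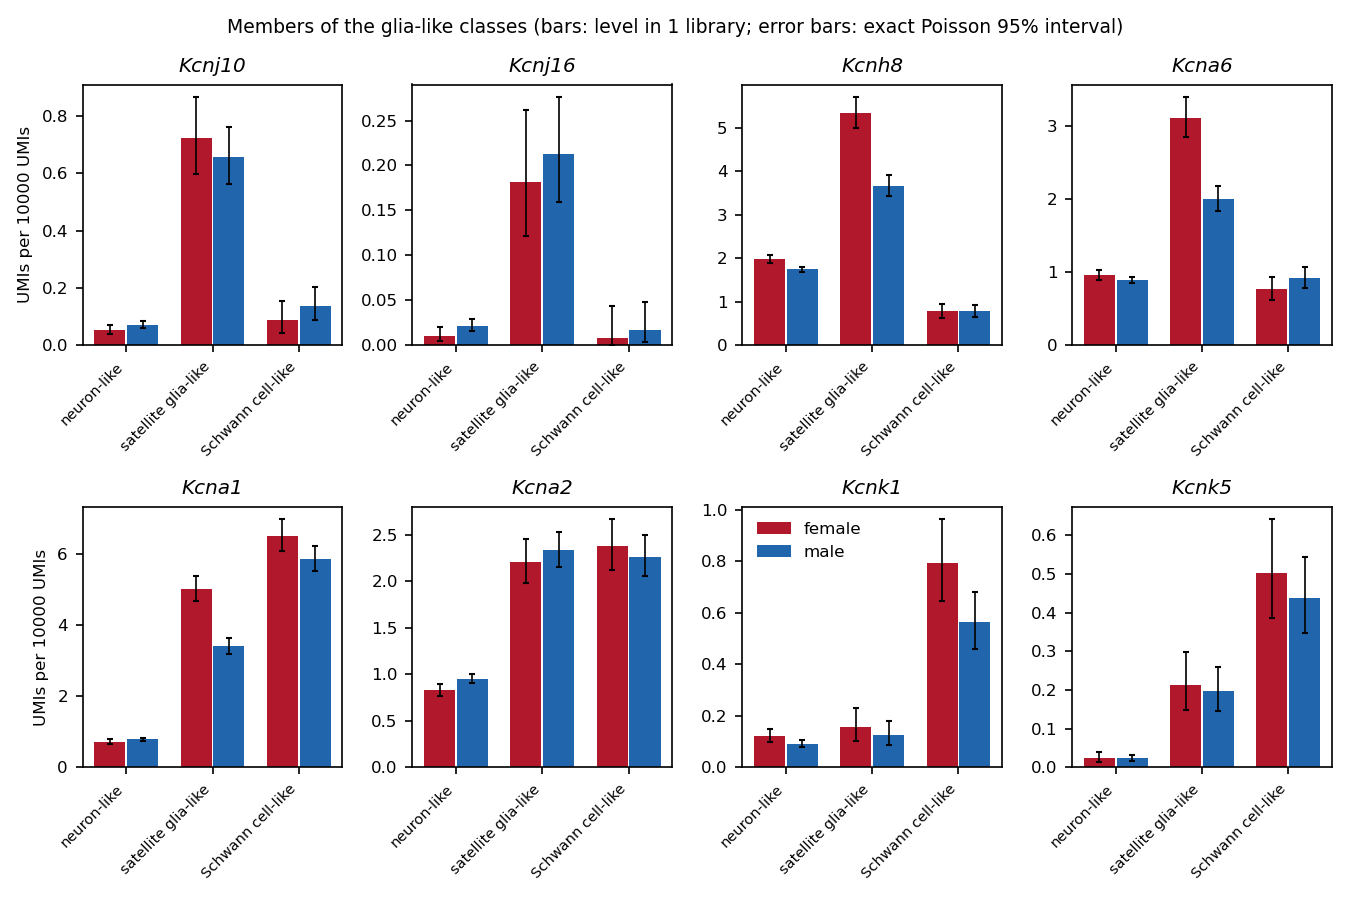
Bars give the level (UMIs per 10000 UMIs, y axis) of 8 members in neuron-like, satellite glia-like and Schwann cell-like nuclei, red for the female and blue for the male library, with exact Poisson 95% intervals as error bars. Kcnj10 and Kcnj16 are highest in satellite glia-like nuclei, and Kcna1 and Kcnk1 in Schwann cell-like nuclei, in both libraries.

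Fibroblast-like nuclei had 5 of 44 members high, where 4.84% of all genes were. Kcnj15 was 19.8 times, Kcne4 16.2 times, Kcnj2 6.86 times, Kcnk5 4.97 times and Kcnt2 2.23 times the mean of the other classes. The strong inward rectifier Kcnj2 (Kir2.1) had a level of 0.606 (0.497 to 0.732) among female and 0.572 (0.480 to 0.678) among male nuclei, with intervals that overlapped between libraries. Kcne4, a beta subunit that inhibits some Kv channels, had 0.0505 and 0.154. Kcnk5 (TASK-2) had 0.746 (0.625 to 0.884) among female and 0.910 (0.792 to 1.04) among male nuclei. Kcnj8, a pore subunit of the ATP-sensitive channel, had 56 UMIs in all, with a fibroblast-like level of 0.0673 and 0.0256, and was not measured in the neuron to glia comparison. Its level was highest in fibroblast-like nuclei in the female library alone. In the male library and with the libraries joined it was highest in endothelial cell-like nuclei, on 2 female and 9 male UMIs. The mural cell marker list (9 genes) summed in that class to 3.98 for females and 9.34 for males, and its part was not tested.

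Barrier fibroblast-like nuclei, which carry the markers of fibroblasts of the meninges and nerve sheath, had 5 of 30 members high, where 6.39% of all genes were. Kcnk2 was 11.5 times the mean of the other classes, at a level of 6.93 (6.35 to 7.56) among female and 5.38 (4.92 to 5.87) among male nuclei, above its neuron-like level of 1.15 and 0.978. It was found in 64.8% of these nuclei and in 4.78% of macrophage-like nuclei, and in 41.3% of the former after thinning. Kcnt1 was at 5.07 times, Kcnj13 (Kir7.1) at 3.16 times and Kcnt2 at 2.50 times. Kcnj13 had a level of 0.586 (0.425 to 0.786) among female and 0.550 (0.409 to 0.723) among male nuclei, and its neuron to glia ratios were 0.37 and 0.18.

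In endothelial cell-like nuclei 1 of 29 members was high, where 7.36% of all genes were. It was Kcnq1, a cardiac and epithelial Kv7 channel, at 10.8 times the mean of the other classes and a level of 0.528 (0.358 to 0.749) among female and 0.410 (0.265 to 0.605) among male nuclei. In macrophage-like nuclei 2 of 17 were high, where 11.9% of all genes were. Kcnk13 (THIK-1), a leak channel known from microglia, was at 12.1 times and a level of 2.82 (2.23 to 3.53) among female and 1.73 (1.28 to 2.28) among male nuclei, and Kcnrg at 2.23 times. Kcnk13 was found in 29.0% of macrophage-like nuclei, 17.7% after thinning, and in 11.0% of neuron-like nuclei. In adipocyte-like nuclei 2 of 22 were high, where 10.1% of all genes were: Kcnk3 (TASK-1), at 6.54 times and a level of 2.05 (1.67 to 2.49) among female and 1.37 (0.847 to 2.09) among male nuclei, and Kcnc2 at 2.61 times. The share of members that were high was below the background in the endothelial cell-like class and near it in the macrophage-like and adipocyte-like classes.

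Granule cell-like nuclei had 14 of 35 members high, where 6.24% of all genes were, but the male level rests on 22 nuclei. Kcnd2 was at 17.3 times the mean of the other classes, with a level of 81.5 (79.9 to 83.2) among female and 64.4 (57.3 to 72.1) among male nuclei. Kcnk12, Kcnj9, Kcnj6 and Kcnc1 followed at 12.7, 10.6, 9.66 and 8.22 times. The unnamed cluster had 6 of 40 members high, where 3.64% of all genes were, among them Kcnj6 (4.65 times), Kcnh8 (4.28), Kcnma1 (3.37) and Kcnj3 (2.50).

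Neuron-like clusters were labelled nodose-led or jugular-led by which marker list was higher. The nodose-led set had 315 female and 967 male nuclei and the jugular-led set 358 and 642. A second clustering, described below, labelled some of these nuclei otherwise. Median depths were 3225 and 6225 UMIs in the nodose-led set and 7416 and 9244.5 in the jugular-led set, so the sets differed in depth. Of 70 members measured, 7 were at least 2-fold higher in the nodose-led set in both libraries, where 4.15% of all genes were, and 8 were lower, where 3.84% were. The median log2 ratio was -0.25 for the members and 0.11 for all genes. The higher members were Kcnq3 (1.97 and 1.63 in the female and male libraries), the GIRK subunit Kcnj9 (2.76 and 1.15), the acid-sensitive leak channels Kcnk3 (1.62 and 1.79) and Kcnk9 (2.01 and 1.55), the silent subunit Kcnf1 (1.85 and 1.42), Kcnn3 (1.18 and 1.30) and Kcnh2 (1.36 and 1.07), which encodes the hERG channel. With ratios centred on the median of all genes, 6 members were higher (3.33% of all genes) and 13 lower (4.52%). With a mean over nuclei in place of summed UMIs 1 was higher, Kcnk3, where 2.64% of all genes were. By that measure 4 were lower (Kcnd3os, Kcnd3, Kcnn1 and Kcnk13), where 3.18% of all genes were. In neuron groups 4 and 5 against 2 and 6, described below, 7 of 66 were higher, where 5.45% of all genes were. Kcnq3, Kcnj9, Kcnk3 and Kcnk9 were among them, and Kcnf1, Kcnn3 and Kcnh2 were not. Kcnq3 had a level of 10.1 (9.77 to 10.5) among female and 9.08 (8.90 to 9.26) among male nuclei in the nodose-led set and of 2.59 (2.45 to 2.74) among female and 2.93 (2.81 to 3.05) among male nuclei in the jugular-led set.

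The lower members were Kcnd3os (-2.89 (-6.30 to -1.19) for females and -2.84 (-4.48 to -1.67) for males), Kcnd3 (-2.17 and -2.79), Kcnk13 (-2.51 and -2.64), Kcnn1 (-2.81 and -2.24), Kcnk12 (-1.92 and -1.99), Kcng2 (-1.79 and -1.53), Kcnh7 (-1.52 and -1.28) and Kcna4 (-1.02 and -1.15). Kcnd3 (Kv4.3) had a level of 3.09 (2.93 to 3.25) among female and 3.09 (2.97 to 3.21) among male nuclei in the jugular-led set and of 0.687 and 0.447 in the nodose-led set. Kcnd3 (chr3:105452330-105674002, plus strand) and Kcnd3os (chr3:105441595-105452955, minus strand) overlap on opposite strands, so that the Kcnd3 promoter lies inside Kcnd3os, with the strand setting of the counting not given in the sources used here. The promoter, taken from the RefSeq start of the gene, is printed because both genes of the pair were called lower. It lies on chromosome 3 at chr3:105451640-105451939 on the plus strand (RefSeq, GRCm38.p6), in lower case throughout since neither SOX string was found in it.
Kcnd3 promoter: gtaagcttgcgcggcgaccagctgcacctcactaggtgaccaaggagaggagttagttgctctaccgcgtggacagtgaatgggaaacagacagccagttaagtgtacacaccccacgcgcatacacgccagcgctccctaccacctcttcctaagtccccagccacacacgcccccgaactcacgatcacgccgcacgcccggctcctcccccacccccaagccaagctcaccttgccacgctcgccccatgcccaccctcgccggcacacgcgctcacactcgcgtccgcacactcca
It is 64.0% G or C.

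A second clustering of the 2282 neuron-like nuclei alone gave 7 groups, numbered by size, whose levels below join both libraries. Group 1 (235 female and 317 male nuclei) had a median of 1995.5 UMIs and was led by Prl and Fabp4. Group 3 (71 and 373) was led by the glial genes Apoe, Ednrb and Fabp7. Its mean log2 fold over the mean of the 7 groups, itself included, was 1.30 for the satellite glia list. Groups 2 (149 and 308, led by Trpm8) and 6 (55 and 116, led by Grik1, with Mrgprd) were jugular-led, and groups 4 (89 and 192, led by Hs3st4 and Cysltr2) and 5 (69 and 188, led by Rmst and Tmc3) nodose-led. Groups 1 and 3 also took the nodose-led label, by which list was higher. Their mean log2 folds were -0.04 and 0.36 for the nodose list and -0.12 and -0.17 for the jugular list. For groups 4, 5 and 7, the last also labelled nodose-led, the nodose folds were -0.01, 0.24 and -0.12. The jugular folds of these groups were -1.80, -1.85 and -1.20. Groups 2 and 6 held 457 and 171 nuclei, fewer than the 1000 nuclei of the jugular-led set. Some nuclei of that set thus lay in groups labelled nodose-led. Group 7 held 5 female and 115 male nuclei and was led by Hand2os1, Tbx20 and Slc6a2, with the noradrenaline transporter Slc6a2 at 15.2, Dbh at 4.24 and Th at 1.23 UMIs per 10000. Its mean log2 fold over the mean of the 7 groups, itself included, was 2.07 for the 8 sympathetic markers.

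Kcnd3 was high in both jugular-led groups, at 3.70 (3.56 to 3.84) in group 2 and 3.32 (3.11 to 3.54) in group 6, against 0.606 in group 4, 0.655 in group 5 and 0.109 in group 7. Kcnh7 was likewise highest in groups 2 and 6, at 10.1 (9.89 to 10.4) and 9.64 (9.29 to 10.0). Kcnk13 and Kcnn1 were instead higher in group 6 than in group 2, at 1.09 (0.977 to 1.22) and 0.455 (0.381 to 0.540), against 0.193 and 0.108. Group 6 also held the highest Kcnt1, at 2.57, Kcng3, at 0.778, and Kcnk12, at 0.459.

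Kcnq3 was lowest in group 6, at 0.577 (0.492 to 0.671), and low in group 2, at 1.99 (1.89 to 2.09), while it reached 11.1 (10.7 to 11.4) in group 4 and 9.61 (9.31 to 9.92) in group 5. Kcnk9 (TASK-3) was at 1.03 (0.929 to 1.13) in group 5 and at 0.0450 in group 4, so these nodose-led groups differed in it. Kcnh8 was highest in group 4, at 4.30 (4.11 to 4.51), and lowest in group 6, at 0.229. Kcnb2 ranged from 6.58 in group 7 to 41.2 in group 4, and Kcnab1 from 2.62 in group 2 to 14.7 in group 4. Kcnma1 varied less, from 2.58 to 6.94.

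**Figure D4:**
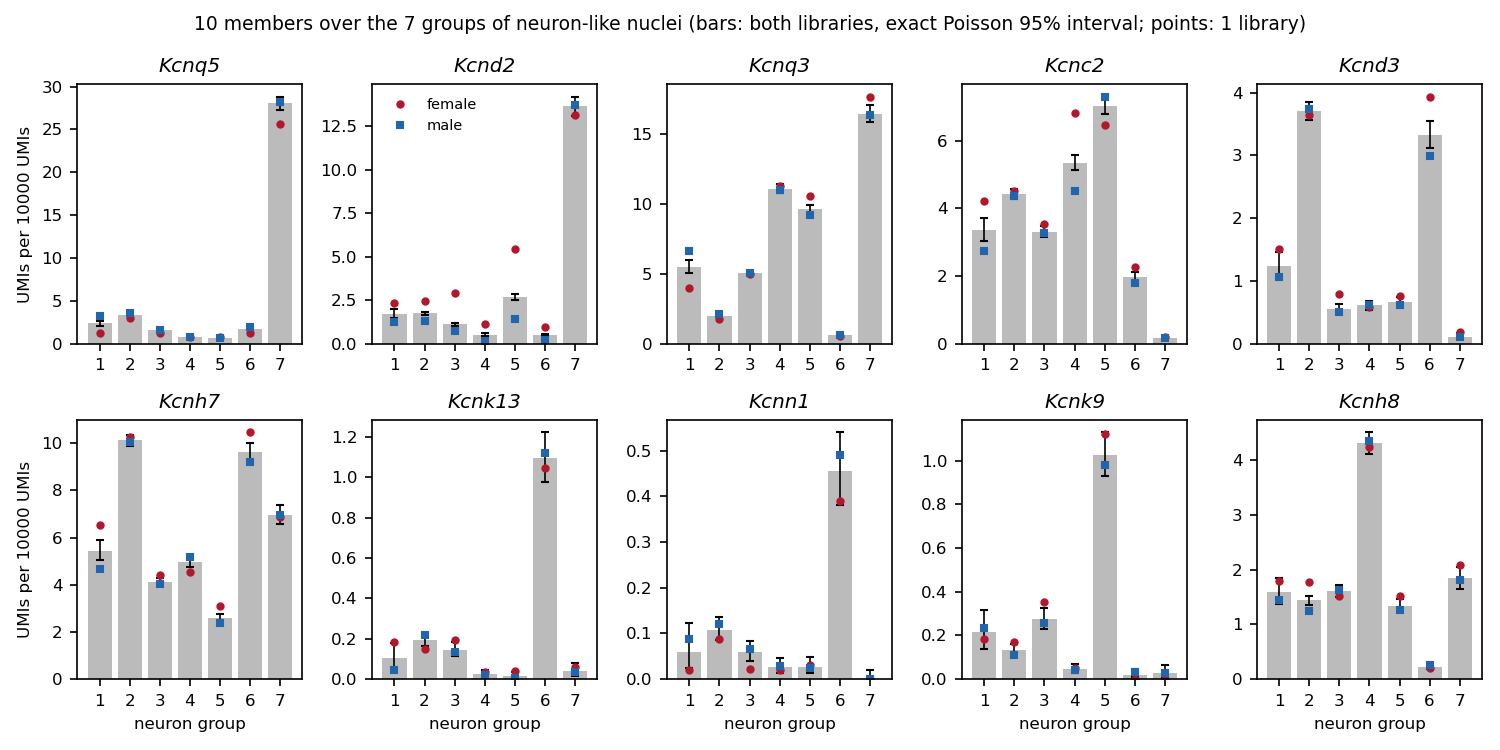
Bars give the level (UMIs per 10000 UMIs, y axis) of 10 members in the 7 groups of neuron-like nuclei (x axis), both libraries joined with exact Poisson 95% intervals, and points give each library. Kcnd3 and Kcnh7 are highest in groups 2 and 6, Kcnq3 is high in groups 4, 5 and 7, and Kcnq5 and Kcnd2 stand out in group 7.

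Group 7 held the highest or the lowest level of several members. Kcnq5 (chr1:21398403-21961942, minus strand) was at 28.0 (27.3 to 28.8), against 0.672 to 3.37 in the other 6 groups, and its level in group 7 was 25.7 for the 5 female nuclei, on 418 UMIs, and 28.3 for the male ones, on 4702 UMIs. Kcnq3 was at 16.4 (15.9 to 17.0), Kcnd2 at 13.7 (13.1 to 14.2) and Kcnj3 at 7.46 (7.07 to 7.87), each the highest of the 7 groups. Kcnh5, Kcnh1, Kcnn3 and Kcnk10 were also highest there, at 1.47, 1.98, 1.63 and 2.73. Kcnb2, Kcnc2 and Kcnd3 were at their lowest, at 6.58, 0.164 and 0.109. Group 7 is counted in the nodose-led set. Without it 7 of 69 members were higher than in the jugular-led set, where 4.17% of all genes were, and 10 lower, where 4.01% were. The calls of Kcnn3 (log2 ratios of 0.82 for females and 0.49 for males) and Kcna4 (-0.94 and -0.96) were then lost. Kcnk2 was newly called higher, and Kcnh1 and Kcnt1 were among the members newly called lower. The ratio of Kcnd3 stayed at -2.48 with the libraries joined.

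The male and female libraries differed in few members. Over whole libraries 3 of 75 members were at least 2-fold higher in the male library, where 2.18% of all genes were, and 5 were lower, where 4.85% were. As male over female log2 ratios, the higher were Kcnq5 at 1.07 (1.01 to 1.13), Kcnn3 at 1.04 (0.80 to 1.28) and Kcnh3 at 1.09 (-0.02 to 2.49), the last on 36 UMIs and with an interval that includes 0. The lower were Kcnd2 at -2.63 (-2.68 to -2.58), Kcnj15 at -1.83 (-2.47 to -1.24), Kcnj9 at -1.34 (-1.86 to -0.84), Kcnk12 at -1.10 (-1.41 to -0.80) and Kcnj6 at -1.02 (-1.21 to -0.82). Without the granule cell-like nuclei 3 were higher, where 2.06% of all genes were, and 3 lower, where 4.69% were, but not the same genes. The higher were then Kcnq5, Kcnh3 and Kcnj4, which stood at 1.01 (0.19 to 1.98), and Kcnn3 was no longer called, at 0.97 (0.74 to 1.22). The lower were Kcnd2, at -1.80 (-1.85 to -1.74), Kcnj15 and Kcnk6, at -1.03 (-1.90 to -0.19), while Kcnj9, Kcnk12 and Kcnj6 were no longer called. Without the neuron-like group 7, 2 were higher, Kcnh3 and Kcnv1 (1.92% of all genes), and 4 lower (4.62%). Neither Kcnq5 nor Kcnn3 was then called over whole libraries. In neuron-like nuclei 2 of 70 members were higher in the male library, where 2.38% of all genes were, and 0 were lower, where 1.38% were. They were Kcnq5, at 1.01 (0.94 to 1.09), and Kcnj16, at 1.05 (0.0 to 2.43) on levels of 0.01 and 0.0218, an interval that reaches 0. Each ratio lay near the 2-fold limit, and in nuclei over 2000 UMIs or with centred ratios Kcnj16 alone was called, while with clusters scaled within each library Kcnq5 alone was.

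The Kcnq5 difference moved with group 7, which held 5 female and 115 male nuclei. Without that group the neuron-like level of Kcnq5 was 1.66 for females and 1.96 for males, a log2 ratio of 0.24 (0.15 to 0.34). The sympathetic marker list (8 genes) summed to 0.57 to 1.72 in the classes of the female library and to 4.11 to 6.36 in those of the male library. The Kcnq5 difference was thus under 2-fold without the group, and the part of the sympathetic markers elsewhere in the male library was not tested.

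Kcnd2 was lower in the male library in every class. In the satellite glia-like class the log2 ratio was -2.26 (-2.61 to -1.93), and in the Schwann cell-like class -2.82 (-3.32 to -2.37). It was -2.0 (-2.38 to -1.64) in fibroblast-like, -1.99 (-2.43 to -1.57) in barrier fibroblast-like, -3.82 (-4.66 to -3.15) in endothelial cell-like, -2.26 (-2.95 to -1.66) in macrophage-like, -3.76 (-5.81 to -2.54) in adipocyte-like and -2.38 (-2.58 to -2.19) in unnamed nuclei. It was -0.34 (-0.51 to -0.17) in granule cell-like and -0.43 (-0.51 to -0.36) in neuron-like nuclei, where it passed no 2-fold limit. The granule cell marker Gabra6 moved in the same way: its level outside granule cell-like nuclei was 0.059 to 1.01 for females and 0 to 0.009 for males, against 3.84 and 2.57 in granule cell-like nuclei. The whole granule cell list of 10 genes, some of which other cells also express, summed in these classes to 2.46 to 10.5 for females and to 1.82 to 7.67 for males. The part of free granule cell RNA in the Kcnd2 difference was not tested. Without group 7 the neuron-like Kcnd2 ratio was -1.53 (-1.63 to -1.44).

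Within the other classes, satellite glia-like nuclei had 4 of 49 members higher in the male library (3.40% of all genes) and 1 lower (2.37%), led beside Kcnd2 by Kcnt1 (1.36) and Kcnv1 (1.34). Schwann cell-like nuclei had 1 of 41 higher (3.80%) and 2 lower (1.68%), with Kcna4 at 1.57 and Kcnj12 at -1.0. Fibroblast-like nuclei had 6 of 44 higher (5.49%) and 2 lower (3.16%), with Kcne4 at 1.55 and Kcnj15 at -1.55, and barrier fibroblast-like nuclei 2 of 30 higher (7.81%) and 2 lower (3.04%), with Kcnrg at -1.61 and Kcnq3 and Kcna1 at 1.0 each. Barrier fibroblast-like nuclei were 1 cluster, while different clusters held most of the other 3 classes in the libraries: of Schwann cell-like nuclei, cluster 1 held 526 female and 184 male and cluster 5 held 21 and 516; of satellite glia-like nuclei, cluster 2 held 59 and 548, cluster 8 held 234 and 209 and cluster 16 held 265 and 63; and of fibroblast-like nuclei, cluster 3 held 519 and 75, cluster 9 held 29 and 413, cluster 14 held 167 and 213 and cluster 18 held 19 and 284.

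Endothelial cell-like nuclei had 3 of 29 members higher in the male library (7.34% of all genes) and 4 lower (5.07%). Among them were Kcnd3 at -1.80, Kcnt2 at -1.52 and Kcnq5 at 1.43 (0.59 to 2.42). The mural cell marker list summed there to 3.98 for females and 9.34 for males, and its part was not tested. Macrophage-like nuclei had 7 of 17 higher (9.71%) and 1 lower (5.27%), with Kcnh8 at 2.66 (1.13 to 5.23) and Kcnq3 at 1.77, and Kcna1 and Kcnb2 at 1.35 and 1.18. Adipocyte-like nuclei had 1 of 22 higher (9.30%) and 5 lower (8.73%), with Kcnh8 at -2.85 (-8.76 to -0.84) and Kcnj3 at -2.42 (-8.33 to -0.36), each on 1 male UMI. Granule cell-like nuclei had 7 of 35 higher (19.0%) and 3 lower (16.0%), with Kcnn2 at 1.96, Kcnh7 at 1.83 and Kcnc4 at 1.57, and the unnamed cluster 3 of 40 higher (9.40%) and 13 lower (12.0%), with Kcnk10 at -1.91 and Kcnj12 at 48 female and 0 male UMIs. In that cluster the granule cell list of 10 genes summed to 10.4 for females and 4.19 for males, with 5 of its genes at 0 among male nuclei and Gabra6 at 1.01 and 0, and the pituitary cell list of 10 genes to 9.31 and 20.7, with Pomc at 0.025 and 9.28. The part of these markers in the 13 lower members was not tested. Beside the macrophage-like values, the summed level of the 17 neuron markers in non-neuronal classes other than granule cell-like was 25.3 to 50.6 for females and 52.9 to 80.8 for males, and its part in these differences was not tested.

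**Figure D5:**
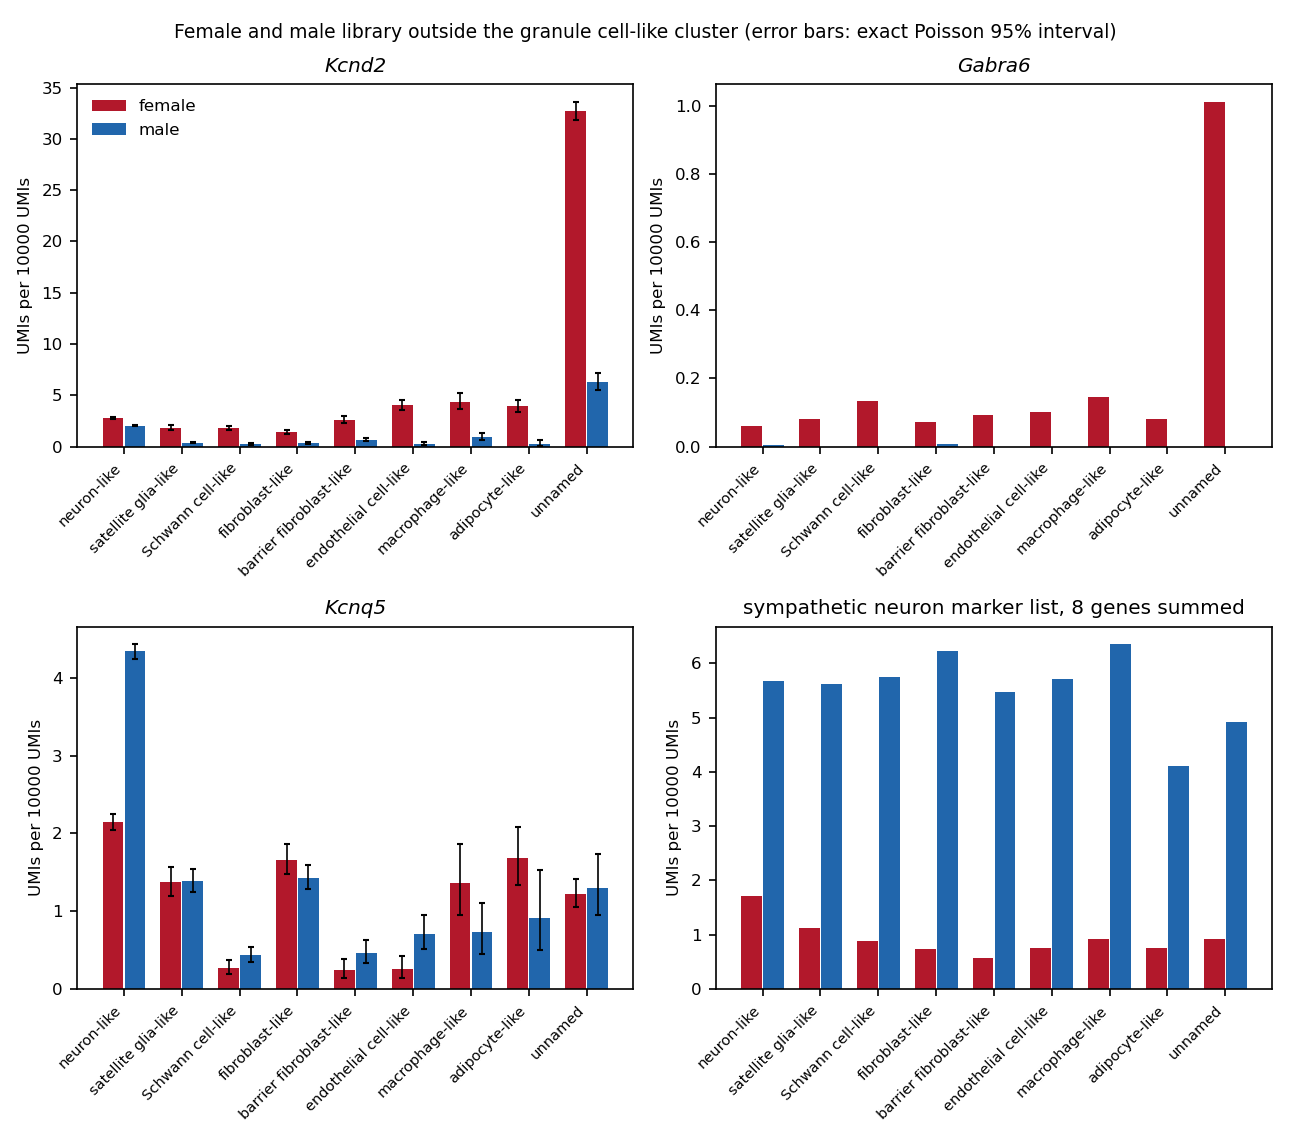
Bars give the level (UMIs per 10000 UMIs, y axis) of Kcnd2, Gabra6, Kcnq5 and the summed sympathetic marker list in each class outside the granule cell-like one (x axis), red for the female and blue for the male library, with exact Poisson 95% intervals for the Kcn genes. Kcnd2 and Gabra6 are lower in the male library in every class shown, the sympathetic list is higher in every class shown, and the level of Kcnq5 has its widest absolute gap in neuron-like nuclei.

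Of 20 listed genes for auxiliary subunits and clustering partners of these channels, 16 were measured, 8 were higher in neuron-like than in glia-like nuclei in both libraries, where 13.3% of all genes were, 1 was lower, where 12.9% were, and the median log2 ratio was 1.37, against -0.14 for all genes. The Kv4 partners Kcnip4, Dpp6 and Dpp10 had ratios of 3.52 and 3.57, of 3.60 and 2.76, and of 3.37 and 3.74, in the female and male libraries. Kcnip1, the BK subunit Kcnmb2, the sulfonylurea receptor Abcc8, and the Kv1 clustering genes Cntnap2 (3.85 and 3.31) and Adam22 were the other higher ones. The BK subunit Kcnmb4 was the lower one, at -1.74 and -1.12. Of the other Kv4 partners, Kcnip1 had 2.31 and 2.16, Kcnip2 had 1.21 and 0.98 and Kcnip3 had 0.65 and 0.67, so that the listed partners of Kv4 lay on both sides of the pore gene Kcnd3 in each library. Cntnap2 was higher in neuron-like nuclei while Kcna1 and Kcna2 were lower.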

How the data were processed

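Nuclei of the 2 libraries were counted by the authors with Cell Ranger on mm10 per the labels, introns included, filtered for debris, genes and UMIs with DIEM, and aggregated after depth normalisation; the deposited values used here are these UMI counts, in which the suffix of a barcode tells its library. Possible doublets were removed by the authors, and no doublet caller was run here. The strand setting of the counting was not given in the sources used here. The matrix holds 17435300 female and 27529730 male UMIs.

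UMIs were summed by class and library and divided by all UMIs of those nuclei, with exact Poisson intervals, which cover counting error only. Ratios had 0.5 UMI added and an exact conditional interval, and at least 20 UMIs were required in the groups compared. With 1 library of each sex no test was run. Nuclei were clustered on 10 principal components of 23391 genes (243 neighbours, resolution 3.4, 20 clusters), without the Kcn genes, sex genes and genes of a table that the study picked on these nuclei. Clusters were named from marker lists by a rule on mean log2 fold (0.05 added to the level), markers past 1.5-fold and the top 10 genes, and the rule was set after the clusters had been seen. Neuron-like nuclei were clustered again (21881 genes, 173 neighbours, resolution 1.0). The nodose, jugular and sympathetic lists describe neuron-like clusters and name none.

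The members and all gene lists were chosen with earlier results of these data known. Named genes were, for each class, up to 5 members high in it with the largest fold, the 10 members with the most UMIs, the 10 with the largest called neuron to glia ratio in each direction, up to 3 with the largest called library ratio in each class, and a fixed list of 27 channel genes. Some genes that the rule takes are counted but not reported by name here. Genes outside this rule are named to complete a count or the neuron groups and were chosen after their values were seen. Spans come from the GENCODE annotation of mm10, in which all 75 members were found, and promoters from RefSeq. Scripts used Python 3.11.15 with numpy 2.4.6, scipy 1.17.1, pandas 2.3.3, igraph 0.11.9, scikit-learn 1.9.0 and matplotlib 3.10.9. The calls were also run on simulated Poisson counts with planted fold changes. These counts held no variation between animals or nuclei, no free RNA and no library effect, so they check the arithmetic only.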

Additional observations from a re-analysis of the deposited data

Results flagged for a closer look

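Among the named classes, 3 members had a male over female log2 ratio past 2-fold in opposite directions in different classes. How many of all genes did so was not computed, so the count cannot be set against a background. For each of the 3 members the difference between the classes was not tested, since each sex is 1 library. The unnamed cluster was left out of this count, and counting it would add others, among them Kcna1 and Kcnn2. Kcnh8 had 2.66 (1.13 to 5.23) in macrophage-like nuclei, on 3 female and 23 male UMIs. In adipocyte-like nuclei it had -2.85 (-8.76 to -0.84), on 34 female and 1 male UMIs. Kcnq3 had 1.77 in macrophage-like and -1.52 in adipocyte-like nuclei. Kcnb2 had 1.32 in endothelial cell-like and -1.05 in granule cell-like nuclei. The adipocyte-like class had 44 male nuclei and the granule cell-like class 22, and the summed level of the 17 neuron markers was higher in the male library in all of these classes; its part in the differences was not tested.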

How the results depend on the processing

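No paired analysis was possible because each sex is 1 pooled library and no result comes from a test. Of 115 alternative values of the counts, 94 stayed within 1.5 times and 21 did not, and of 1242 alternative values of single members 314 lay outside the interval of the main value and none reversed in sign once called. The neuron to glia count (26 higher, 8 lower) was 25 to 28 higher and 8 to 11 lower, sharing 22 to 26 and 7 to 8 genes, and with 1 library alone 30 to 36 higher and 9 to 10 lower. Of all genes, 10.7% to 15.1% were then higher and 11.2% to 15.5% lower. With 1 library alone these shares were 17.3% to 18.6% and 15.2% to 18.9%. The nodose to jugular count was least stable. Its lower members, 8 (3.84% of all genes), became 17 with clusters scaled within each library (4.61%) and 13 with centred ratios (4.52%). They were 15 with the groups of the second clustering (4.28%) and 20 with groups 4 and 5 against 2 and 6 (5.96%). With the female library alone they were 20 (8.55%) and with the male library alone 13 (5.73%). By a mean over nuclei they were 4 (3.18%), with 1 higher (2.64%) in place of 7. Over whole libraries, the 3 members higher in the male library became 5 with a mean over nuclei (3.99% of all genes) and 1 with the mean of ratios over classes (3.40%). The 5 lower became 3 with the mean of ratios over classes (2.29%) and 3 outside granule cell-like nuclei (4.69%). Without group 7 they were 2 higher (1.92%) and 4 lower (4.62%). In neuron-like nuclei, 2 higher and 0 lower became 4 and 2 with a mean over nuclei (4.92% and 3.23% of all genes). Only 1 was higher in nuclei over 2000 UMIs (2.40%), with clusters scaled within each library (2.17%), with at least 50 UMIs (1.24%) or with centred ratios (2.26%). There was 1 lower with at least 1 UMI (8.80%) or without group 7 (1.34%). Shares above the macrophage-like share fell from 54 members to 19 on thinning, with no share of all genes computed for either count. The cause of these changes was not tested. Leaving out 1 library, the second clustering and the settings without neuron groups or without the granule cell-like and unnamed nuclei were chosen after seeing the data. Depth limits the classes of few nuclei, where only 17 to 35 members had the 20 UMIs needed.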
